A study of Mus musculus with 2 samples.

Results

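Rab GTPases are small GTP-binding proteins that direct membrane traffic. Each Rab is held on its own set of membranes by a prenyl anchor, is switched on by an exchange factor that loads GTP, recruits effectors such as tethers and motors while on, and is switched off when a GTPase-activating protein speeds GTP hydrolysis. GDP dissociation inhibitors then lift the inactive protein off the membrane and carry it back. In neurons, Rab proteins act on synaptic and dense-core vesicles, on receptor recycling at the synapse and on the transport of endosomes along axons and dendrites.

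The Rab genes were taken as every row whose symbol is Rab followed by a number, with at most a letter and a digit after it, so that genes such as Rab3gap1 and Rab11fip2 were left out. The rule found 58 genes among 32531 gene symbols. The RNA came from translating ribosome affinity purification (TRAP), in which ribosomes tagged with EGFP on protein L10a are pulled down with antibodies against EGFP and the RNA on them is sequenced. The animals were adult untreated mice of the Stard5-EGFP/Rpl10a line JX5852, in which regulatory sequence of Stard5, a lipid carrier gene, drives the tag, and the tissue was the ventral striatum. The series has 1 group with 2 libraries of pulled-down RNA, replicate 1 and replicate 2. Whether each replicate was a separate animal or a pool is not stated in the labels, so their spread may be technical. No input RNA was analysed here, so no level below says whether a gene is enriched in the tagged cells over the tissue, and fewer cells of a type cannot be told apart from less RNA per cell.

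The libraries held 25830282 reads that fell in genes in replicate 1, and 29574781 in replicate 2. The unit of level is CPM, reads per 1000000 reads in genes, and, where genes are set against each other, as CPM per kilobase of annotated exon, because a longer transcript gives more reads. Errors are SDs over the 2 libraries (n = 2). Stard5 stood at 166 CPM in replicate 1, against 54.9 CPM in replicate 2. All 13 markers of spiny projection neurons, the main neurons of the striatum, were detected, with a median of 627 CPM. Markers of glia were present as well: the 10 astrocyte markers summed to 938 CPM in replicate 1, against 3083 CPM in replicate 2, the 10 oligodendrocyte markers to 1016 and 1564 CPM, and the 10 microglia markers to 242 and 168 CPM, and none of these markers was at 0 reads in both libraries. The share of the Rab reads that came from such cells was not tested.

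Most Rab genes were present in the ribosome-bound RNA. Detection was set at 1 CPM in each library, and 48 of the 58 Rab genes (82.8%) met this. Of all symbols 38.0% were detected, and of the symbols that GENCODE annotates as protein-coding genes 56.6%. The detected Rab genes had a median of 51.8 CPM, against 23.1 CPM over all 12374 detected genes. Per kilobase of exon the medians were 12.2 CPM for the detected Rab genes and 5.31 CPM for all detected genes with an annotated length. All Rab genes together took 0.832% of the gene reads in replicate 1 (exact 95% interval 0.829 to 0.836) and 0.704% in replicate 2 (0.701 to 0.707), a mean of 0.768% ± 0.0908. The share was higher in replicate 1 by more than counting error, the only error these intervals cover.

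The reads were concentrated in a few genes. The 5 Rab genes with the most reads, Rab6b, Rab3c, Rab2a, Rab6a and Rab7, took 59.5% of all Rab reads in replicate 1 and 59.1% in replicate 2. Of the 48 detected genes, 41 (85.4%) reached 10 CPM in both libraries, against 63.2% of all detected genes. At 100 CPM there were 12 (25.0%, against 15.5%), and at 1000 CPM Rab6b and Rab3c (4.17%, against 0.541%). Grouped by the membranes on which the proteins are best known to act, the 16 genes of the endoplasmic reticulum and Golgi apparatus held 52.3% of the summed level per kilobase in replicate 1 and 53.3% in replicate 2. Next came the 6 late endosome and lysosome genes with 18.05% and 14.1%, and the 8 secretory vesicle genes with 11.0% and 12.4%. The recycling, exocytic carrier, early endosome and remaining groups each held between 2.60% and 6.71% in either library. The order of the late endosome and secretory vesicle groups rested on the length used. By CPM with no length, secretory vesicle genes summed to 1521 and 1483, above late endosome and lysosome genes at 1087 and 683.

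**Figure D1:**
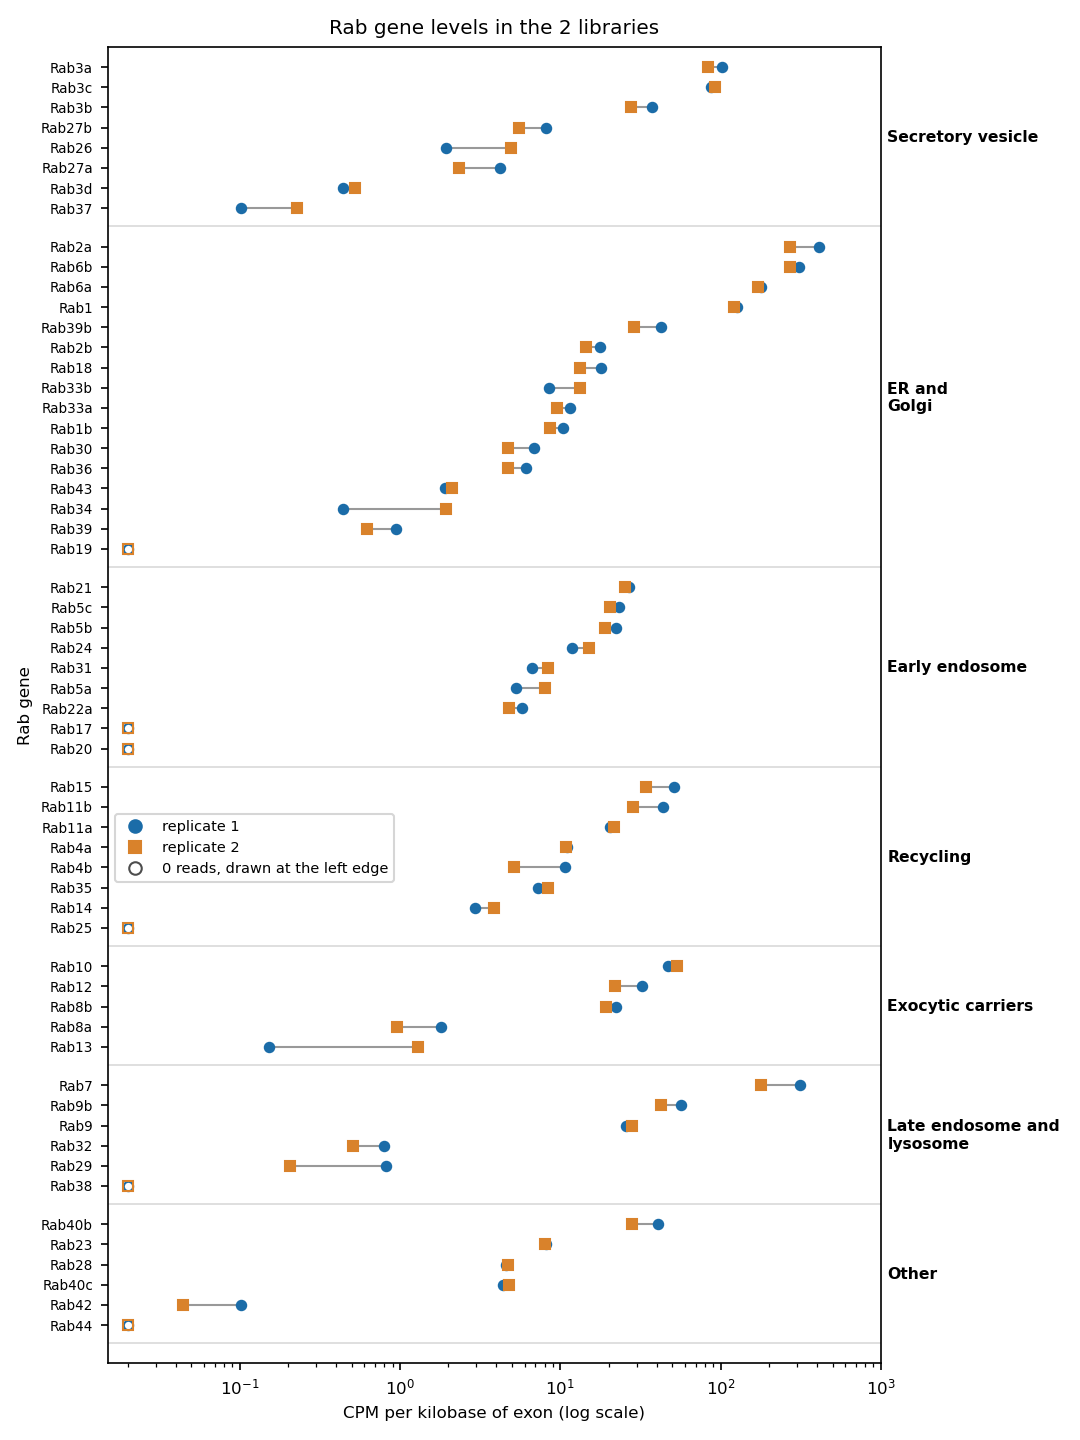
Level of each of the 58 Rab genes in CPM per kilobase of exon (log axis), in replicate 1 (circles) and replicate 2 (squares), grouped by the membranes on which the protein acts and ordered by mean level. Rab2a, Rab6b and Rab7 lie highest, and the 6 genes at 0 reads in both libraries are drawn as open marks at the left edge.

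The start regions of 6 Rab genes are shown because they contrast strongly read genes with genes that had no reads, and because the paralogue pairs Rab6a with Rab6b and Rab3a with Rab3c carry much of the family's signal. Each window runs from 250 bases before to 50 bases after the transcription start in RefSeq (build GRCm38.p6) and is read 5′ to 3′ on the gene's strand. Capitals mark CpG dinucleotides, the bases that are methylated at most places in mammalian genomes but usually not in CpG-rich promoters.
Rab6b, chr9:103111824-103112123, plus strand: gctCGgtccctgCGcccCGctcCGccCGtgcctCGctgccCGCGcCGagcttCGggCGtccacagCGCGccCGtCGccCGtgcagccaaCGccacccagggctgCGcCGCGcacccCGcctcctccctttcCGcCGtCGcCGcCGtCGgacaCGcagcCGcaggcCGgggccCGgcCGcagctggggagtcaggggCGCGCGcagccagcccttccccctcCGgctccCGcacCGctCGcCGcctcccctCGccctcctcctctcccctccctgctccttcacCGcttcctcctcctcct
Rab6a, chr7:100607336-100607635, plus strand: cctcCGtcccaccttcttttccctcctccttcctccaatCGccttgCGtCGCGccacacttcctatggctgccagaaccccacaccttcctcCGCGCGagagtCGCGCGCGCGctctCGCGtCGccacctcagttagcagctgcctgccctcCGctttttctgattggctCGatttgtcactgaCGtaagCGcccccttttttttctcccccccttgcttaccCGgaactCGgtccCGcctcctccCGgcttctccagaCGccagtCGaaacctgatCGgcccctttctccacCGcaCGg
Rab3c, chr13:110280157-110280456, minus strand: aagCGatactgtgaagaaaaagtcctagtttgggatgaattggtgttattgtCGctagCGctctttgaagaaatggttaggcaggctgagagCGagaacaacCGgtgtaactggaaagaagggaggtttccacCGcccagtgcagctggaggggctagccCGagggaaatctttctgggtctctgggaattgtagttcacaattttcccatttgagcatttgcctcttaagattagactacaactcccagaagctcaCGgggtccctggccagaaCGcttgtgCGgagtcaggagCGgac
Rab3a, chr8:70754453-70754752, plus strand: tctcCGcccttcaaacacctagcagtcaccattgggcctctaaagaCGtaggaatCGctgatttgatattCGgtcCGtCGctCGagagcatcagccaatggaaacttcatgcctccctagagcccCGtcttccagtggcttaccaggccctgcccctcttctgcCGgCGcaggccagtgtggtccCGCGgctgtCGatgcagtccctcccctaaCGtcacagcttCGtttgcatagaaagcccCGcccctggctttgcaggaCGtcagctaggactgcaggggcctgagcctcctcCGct
Rab25, chr3:88548230-88548529, minus strand: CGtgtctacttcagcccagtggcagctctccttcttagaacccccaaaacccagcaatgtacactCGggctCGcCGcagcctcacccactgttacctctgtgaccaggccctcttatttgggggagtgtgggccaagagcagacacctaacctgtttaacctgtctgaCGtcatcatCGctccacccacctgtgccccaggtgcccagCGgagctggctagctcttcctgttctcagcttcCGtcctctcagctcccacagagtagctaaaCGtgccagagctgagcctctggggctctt
Rab17, chr1:90967618-90967917, minus strand: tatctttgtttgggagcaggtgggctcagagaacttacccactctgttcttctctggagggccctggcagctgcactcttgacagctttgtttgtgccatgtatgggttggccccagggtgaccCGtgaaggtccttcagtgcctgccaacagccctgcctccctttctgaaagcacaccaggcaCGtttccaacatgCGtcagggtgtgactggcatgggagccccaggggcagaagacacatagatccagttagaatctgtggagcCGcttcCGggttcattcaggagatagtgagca
The windows of Rab6b and Rab6a held 42 and 29 CpG dinucleotides. Those of Rab3a and Rab3c held 18 and 11, and those of Rab25 and Rab17, which had no reads, 9 and 5. The window of Rab20, which is not shown and also had no reads, held 16, more than that of Rab3c.

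Of the 58 Rab genes, 48 had a start window in the RefSeq table, and where a gene had several the first listed was used. CpG dinucleotides were more frequent in the windows of detected Rab genes: the median ratio of observed to expected CpG was 0.754 in 41 detected genes and 0.388 in 7 genes that were not detected. A ratio of 0.6 or more, a usual mark of CpG islands, was found in 33 of the 41 detected genes (80.5%) and in 3 of the 7 others (42.9%). The same split was present over all genes, with 74.9% of the windows of detected genes and 18.8% of those of genes not detected at 0.6 or more, so it is not particular to Rab genes. Exceptions ran both ways. Among the detected genes under 0.6, Rab33a had the lowest ratio, 0.272, and the strongly read Rab3c had 0.591. Rab13, Rab29 and Rab20 were not detected, with ratios of 1.04, 0.787 and 0.647.

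**Figure D2:**
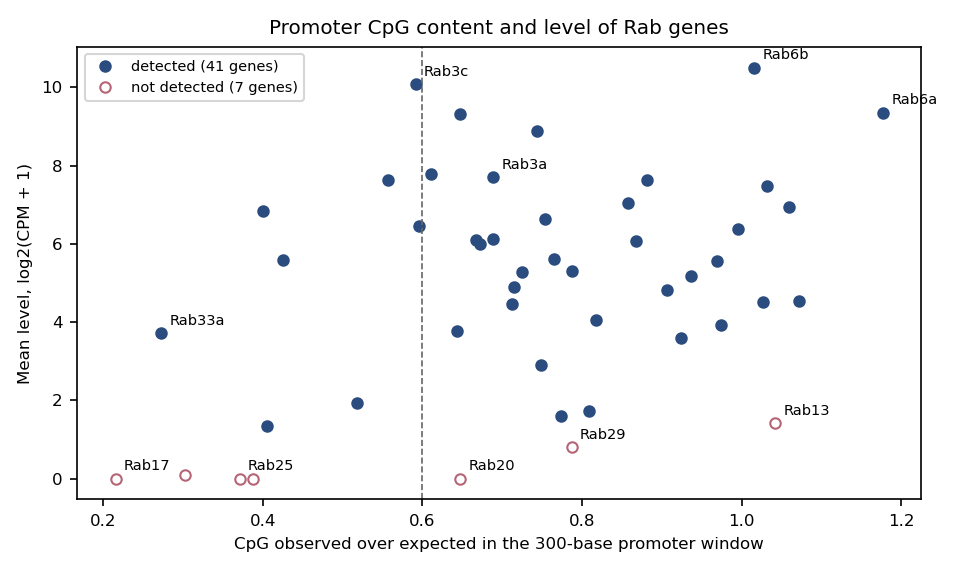
Mean level of 48 Rab genes in log2(CPM + 1) against the observed over expected CpG ratio of the 300-base start window. Filled points are the 41 detected genes, open points the 7 genes not detected, and the dashed line marks 0.6. Rab17 and Rab25 lie at the lower left and Rab6a and Rab6b at the upper right, while Rab13 lies low at a high ratio.

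Short motifs were searched as exact letters on either strand of these windows. GGGCGG, the core of the GC box bound by Sp factors, was in 32 of the 41 detected Rab windows (78.0%) and in 65.7% of all detected genes' windows. CCAAT was in 22 of 41 (53.7%), against 38.9% of all detected genes. TATAAA was in 3 (7.32%, against 6.56%), the full cAMP response element TGACGTCA in 1 (2.44%, against 3.53%) and the E-box CACGTG in 4 (9.76%, against 10.3%). The motifs do not contain one another. A match is a description of the letters and does not show a bound site.

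Secretory vesicle Rabs were led by a pair of Rab3 genes. Rab3a, the main Rab of synaptic vesicles and a regulator of neurotransmitter release (chromosome 8, 70754679 to 70758677, plus strand, mm10), stood at 226 CPM in replicate 1, against 187 CPM in replicate 2, or 102 and 84.0 CPM per kilobase. Rab3c, a close relative also found on synaptic vesicles (chromosome 13, 110054187 to 110280996, minus strand), stood at 1052 and 1114 CPM, or 87.3 and 92.4 CPM per kilobase. The order of this pair per kilobase differed between the libraries, with Rab3a above Rab3c by 0.04 ± 0.25 on the log2 scale, less than the spread. The order also rested on the length used, since the annotated exons of Rab3c span 12049 bases and those of Rab3a 2226. Per kilobase of coding sequence, which is close to equal in both genes, Rab3c held 76.0% ± 3.66 of the Rab3 reads and Rab3a 15.6% ± 1.96.

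Rab3b, which in other neurons supports presynaptic plasticity, was lower, at 37.3 and 27.5 CPM per kilobase, with Rab3c above it by 1.49 ± 0.37 log2 units. Rab3d, better known from exocrine and endocrine granules, was near the detection limit at 1.86 and 2.20 CPM. Of the Rab27 genes, which tether secretory granules and lysosome-related organelles to the plasma membrane, Rab27b stood at 8.14 and 5.54 CPM per kilobase and Rab27a at 4.20 and 2.33. Rab27b was the higher in both libraries. Rab26, linked to synaptic vesicle clusters and autophagy, had 142 reads (5.50 CPM) in replicate 1 and 418 (14.1 CPM) in replicate 2. Rab37, a Rab of secretory granules, was not detected, with 14 and 36 reads.

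Rabs of the endoplasmic reticulum and Golgi apparatus were the most abundant group. Rab2a, which acts between the endoplasmic reticulum and the Golgi and in the formation of dense-core vesicles and lysosomes (chromosome 4, 8535644 to 8607778, plus strand), stood at 409 and 272 CPM per kilobase in replicates 1 and 2. Rab6b, the neuronal form of the Golgi Rab6 (chromosome 9, 103111787 to 103185276, plus strand), stood at 307 and 272 CPM per kilobase. Per kilobase Rab2a ranked 30 and Rab6b 39 of 11466 detected genes with an annotated length. In replicate 2 the pair had near-equal levels, and their difference of 0.21 ± 0.29 log2 units was within the spread. By reads without regard to length, Rab6b had more, at 1545 and 1366 CPM against 873 and 579.7 CPM of Rab2a.

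Rab6a, the widely expressed Rab6, followed at 179 and 171 CPM per kilobase, below Rab6b by 0.72 ± 0.08 log2 units. Rab1, the gene now named Rab1a, which drives traffic from the endoplasmic reticulum to the Golgi, stood at 126 and 121 CPM per kilobase, below Rab6a by 0.51 ± 0.01. Both steps were many times larger than their spread over the libraries, a spread that does not cover the choice of length. Of the exon bases of Rab6a, 19.0% overlap Mrpl48 on the other strand. Rab39b, whose loss in humans causes X-linked intellectual disability with early parkinsonism, came next at 42.3 and 29.1 CPM per kilobase. The other 10 genes of this group with reads lay between 0.438 and 17.9 CPM per kilobase in the single libraries, all below Rab39b. Rab2b, the relative of Rab2a, stood at 17.6 and 14.5 CPM per kilobase, with 64.0% of its exon bases inside other annotated genes, and Rab18, of lipid droplets and the endoplasmic reticulum, at 17.9 and 13.2. Their order differed between the libraries. Rab33b, which acts at the Golgi and in autophagy, stood at 8.50 and 13.3, Rab33a at 11.5 and 9.61, and Rab1b, the second Rab1 form, at 10.4 and 8.62 CPM per kilobase. Rab30 and Rab36, both Golgi Rabs, were alike at 6.88 and 4.69 and at 6.11 and 4.73. Rab43, of the Golgi, followed at 1.91 and 2.10, Rab34 at 0.438 and 1.94, and Rab39, the paralogue of Rab39b, at 0.938 and 0.626. Rab19 had 0 reads.

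Early endosome Rabs were lower. Rab21, which moves integrins through early endosomes, led the group at 26.7 and 25.5 CPM per kilobase. The Rab5 genes, which direct fusion of endocytic vesicles with early endosomes, differed among themselves: Rab5c stood at 23.3 and 20.3, Rab5b at 22.2 and 19.0, and Rab5a at 5.29 and 8.05 CPM per kilobase. Per kilobase of exon Rab5a was the lowest of them in both libraries, while Rab5c exceeded Rab5b by 0.08 ± 0.02 log2 units. Per kilobase of coding sequence Rab5c fell below Rab5b. Rab5a then held 16.6% and 26.0% of the subfamily in replicates 1 and 2, against 27.9% and 25.1% for Rab5c. By that length Rab5a was thus not the lowest in replicate 2. Rab31 and Rab22a, a pair of close relatives that act at the trans-Golgi and early endosomes, stood at 6.63 and 8.39 and at 5.74 and 4.82 CPM per kilobase. Rab24, linked to autophagy, stood at 11.9 and 15.1, but 62.4% of its exon bases overlap Prelid1 on the other strand. Rab17 and Rab20 had 0 reads.

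Among recycling Rabs, Rab15, a neural Rab of the recycling endosome, led at 51.3 and 34.3 CPM per kilobase. Rab11b, enriched in brain, stood at 43.6 and 28.5 and Rab11a, its widely expressed relative that returns receptors to the surface, at 20.3 and 21.8 CPM per kilobase. Rab11b was above Rab11a by 1.10 log2 units in replicate 1 and 0.39 in replicate 2. Rab25, the epithelial member of the Rab11 subfamily, had 0 reads. Rab4a and Rab4b, of fast recycling, stood at 11.0 and 10.8 and at 10.7 and 5.13 CPM per kilobase. Rab35, which acts in recycling and neurite growth, stood at 7.25 and 8.42. Rab14, of the Golgi and recycling endosomes, stood at 2.95 and 3.88, over 13589 bases of annotated exon, the largest exon length of the 58 genes. By reads without regard to length, Rab14 was above Rab35, Rab4a and Rab4b in both libraries. It stood at 40.1 and 52.7 CPM, against 20.4 and 23.7 CPM of Rab35.

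Rabs of exocytic carriers were led by Rab10, which carries membrane to the surface during axon and dendrite growth and is a substrate of the Parkinson disease kinase LRRK2. It stood at 46.8 and 53.4 CPM per kilobase. Rab12, another LRRK2 substrate, stood at 32.2 and 21.9. Of the Rab8 genes, which act in transport to the plasma membrane and the cilium, Rab8b stood at 22.3 and 19.3 and Rab8a at 1.81 and 0.954 CPM per kilobase. Rab8b was higher by 3.98 ± 0.51 log2 units, a difference far larger than its spread. Rab13, a Rab of epithelial junctions, had 9 reads in replicate 1 and 88 in replicate 2, and missed detection through replicate 1.

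Late endosome and lysosome Rabs were dominated by Rab7 (chromosome 6, 87999106 to 88045270, minus strand), the Rab of late endosome maturation and of fusion with lysosomes and autophagosomes. It stood at 312 and 178 CPM per kilobase in replicates 1 and 2, with a log2 ratio of 0.83. Rab9b and Rab9, which return receptors from late endosomes to the Golgi, followed at 56.6 and 42.3 and at 25.8 and 28.0 CPM per kilobase. Rab7 stood above Rab9b by 2.27 ± 0.28 log2 units, and Rab9b above Rab9 by 0.87 ± 0.38. Rab32, of lysosome-related organelles and mitochondria, stood at 1.86 and 1.18 CPM, and its relatives Rab29, which can recruit LRRK2 to membranes, and Rab38, of pigment granules, were not detected, with 31 and 9 reads and with 0 reads. Rab9, Rab9b, Rab33a and Rab39b were the 4 Rab genes on the X chromosome.

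Of the remaining genes, Rab40b, of a subfamily whose proteins carry a SOCS box and join ubiquitin ligases, led at 40.8 and 28.1 CPM per kilobase, above its relative Rab40c at 4.42 and 4.76. Rab23, an inhibitor of Hedgehog signalling, stood at 8.15 and 8.02, and Rab28, of the photoreceptor cilium, at 4.56 and 4.73. Rab42 had 2 and 1 reads. Rab44, a long Rab known from immune cells, had 0 reads. In all, Rab17, Rab19, Rab20, Rab25, Rab38 and Rab44 were at 0 reads in each library. As far as counting error goes, such a count allows up to 3 reads per library, which is 0.116 CPM for replicate 1 and 0.101 CPM for replicate 2. Of the order of neighbouring genes within these groups, 33 of 45 pairs had the same order per kilobase in both libraries.

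The Rab genes that occur as close paralogues split their reads unevenly in some subfamilies and nearly evenly between the leading members in others. In 14 subfamilies with more than a single member, shares were taken of the summed level per kilobase of exon. A near-complete lead was held by Rab39b with 97.9% ± 0.0417 of the Rab39 subfamily, Rab2a with 95.4% ± 0.663 of Rab2, Rab8b with 93.9% ± 1.98 of Rab8, Rab1 with 92.8% ± 0.717 of Rab1, and Rab40b with 87.9% ± 3.33 of Rab40. These leads were as clear per kilobase of coding sequence, between 83.0% and 98.2%. Rab27b with 68.2% ± 3.15, Rab9b with 64.4% ± 5.99, Rab11b with 62.5% ± 8.12 and Rab6b with 62.2% ± 1.28 led their subfamilies by less. Per kilobase of coding sequence these 4 leads were larger, at 85.7%, 81.4%, 77.4% and 72.2%. Rab27b was then above Rab40b at 83.0%, so the division into larger and smaller leads rested on the length used. Rab4a held 50.8% of the Rab4 subfamily in replicate 1 and 67.9% in replicate 2, a lead over Rab4b that differed widely between the libraries. Per kilobase of coding sequence Rab4a held 47.3% and 64.8%, with Rab4b ahead in replicate 1. Rab33b held 42.5% and 58.1% of the Rab33 subfamily, so that its order with Rab33a differed between the libraries. This order also rested on the length used, since per kilobase of coding sequence Rab33b held 75.7% ± 8.06. By mean share per kilobase of exon, Rab3a and Rab3c were near each other at 43.0% and 41.9%, and Rab5c and Rab5b at 44.4% and 41.9%. Rab31 held 58.6% and Rab22a 41.4% of the Rab22 subfamily. In the Rab3, Rab5 and Rab22 subfamilies the leading gene changed per kilobase of coding sequence.

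**Figure D3:**
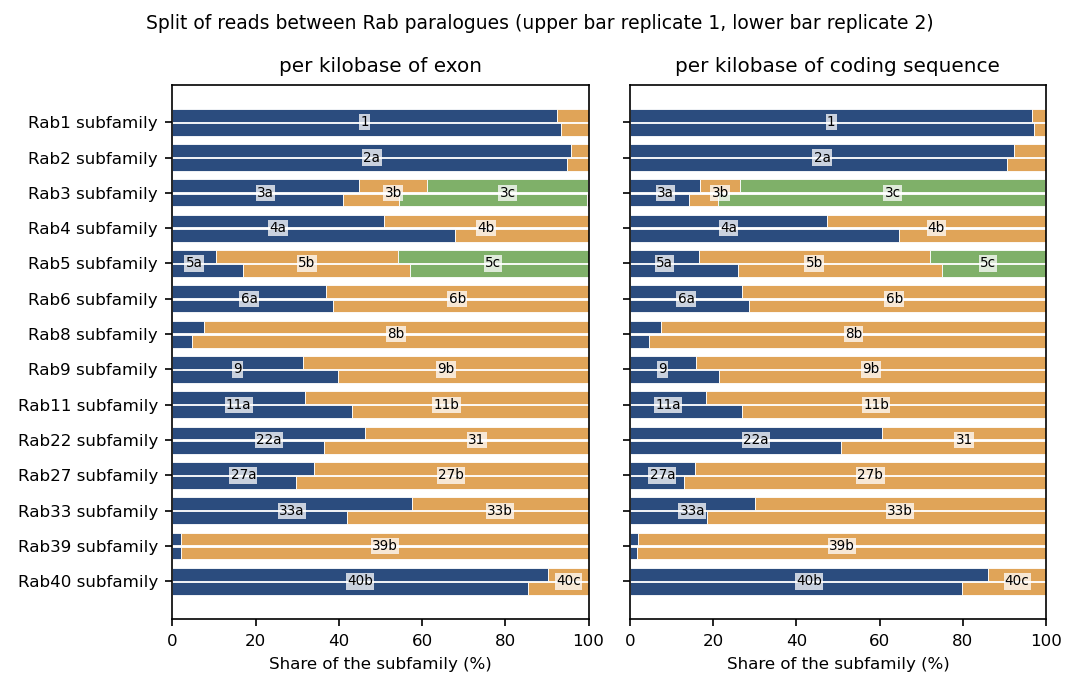
Share of each paralogue in its Rab subfamily, in percent of the summed level per kilobase of exon (left) or of coding sequence (right). The upper bar of each pair is replicate 1, the lower replicate 2. Rab3c fills a larger part of the Rab3 subfamily per coding kilobase than per exon kilobase, while Rab1, Rab2a, Rab8b, Rab39b and Rab40b fill most of theirs in both panels.

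Between the 2 libraries the Rab genes differed less than detected genes as a whole. After TMM scaling (trimmed mean of M-values) of the library sizes, 3 of the 48 detected Rab genes (6.25%) differed by at least 2-fold, against 17.5% of all 12374 detected genes. A ratio of 2 libraries has no replicate check, so these are counts past a fold and not tests. The median absolute log2 ratio was 0.33 for the Rab genes and 0.45 for all detected genes. Since most Rab genes were well read, the comparison was also made at a mean of 100 CPM or more, where 0 of 15 Rab genes and 2.90% of 2175 genes passed 2-fold, so at these levels few genes of any kind did.

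The 3 genes past 2-fold were Rab4b, Rab26 and Rab34. Rab4b, at 21.1 CPM in replicate 1 against 10.1 CPM in replicate 2, had a log2 ratio of 1.08 (counting interval 0.87 to 1.29), and it was the only detected Rab gene past 2-fold higher in replicate 1, where 8.60% of all detected genes were. Its exon bases overlap other annotated genes over 65.0% of their length. Rab26, at 5.50 and 14.1 CPM, had a ratio of -1.34 (-1.63 to -1.07), and Rab34, a Golgi and cilium Rab, at 1.05 and 4.63 CPM, a ratio of -2.13 (-2.78 to -1.53). These 2 of 48 were higher in replicate 2, against 8.91% of all detected genes. Of the genes not detected, Rab13 at 0.348 and 2.98 CPM had the ratio farthest from 0, at -3.08 (-4.25 to -2.09).

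Astrocyte markers were higher in replicate 2 as well: 7 of 10 passed 2-fold in that direction and 0 in the other, with a median log2 ratio of -1.55 and Aqp4 at 10.7 CPM in replicate 1, against 46.9 CPM in replicate 2. Of the 10 oligodendrocyte markers, 3 were past 2-fold towards replicate 2 and 0 towards replicate 1. Their part in the ratios of Rab13, Rab26 and Rab34 was not tested. Abundant Rab genes leaned slightly to replicate 1: of the 15 Rab genes at a mean of 100 CPM or more, 13 had a ratio above 0, against 52.2% of all genes at that level. Rab3c and Rab10, at -0.06 and -0.17, were the other 2. Rab7 at 0.83, Rab11b at 0.63 and Rab2a at 0.61 leaned most. Of the marker lists, the 10 microglia markers had a median log2 ratio of 0.49 with 2 past 2-fold towards replicate 1. The 7 detected endothelial and mural markers had a median of 0.28 with 2 past it, and the 13 spiny neuron markers 0.25 with 0. Towards replicate 2, the 4 detected glutamatergic markers had a median of -0.91 with 2 past 2-fold. The 5 detected oligodendrocyte precursor markers had -0.78 with 1, the 4 cholinergic -0.55 with 1 and the 6 GABAergic -0.53 with 0. Reads with more than a single alignment, which the files count apart from genes, made up 27.9% of reads in replicate 1 and 13.6% in replicate 2. Of the 50-base words in Rab7 and Rab11b transcripts, 12.7% and 13.6% also occur in transcripts of other genes, against 4.51% for Rab2a. These words include those where exons overlap another gene at the same place, so they do not measure multiple alignment alone. Such overlap covers 7.82% of exon bases in Rab7, 5.37% in Rab11b and 0% in Rab2a. The part of these markers and reads in the Rab ratios was not tested.

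**Figure D4:**
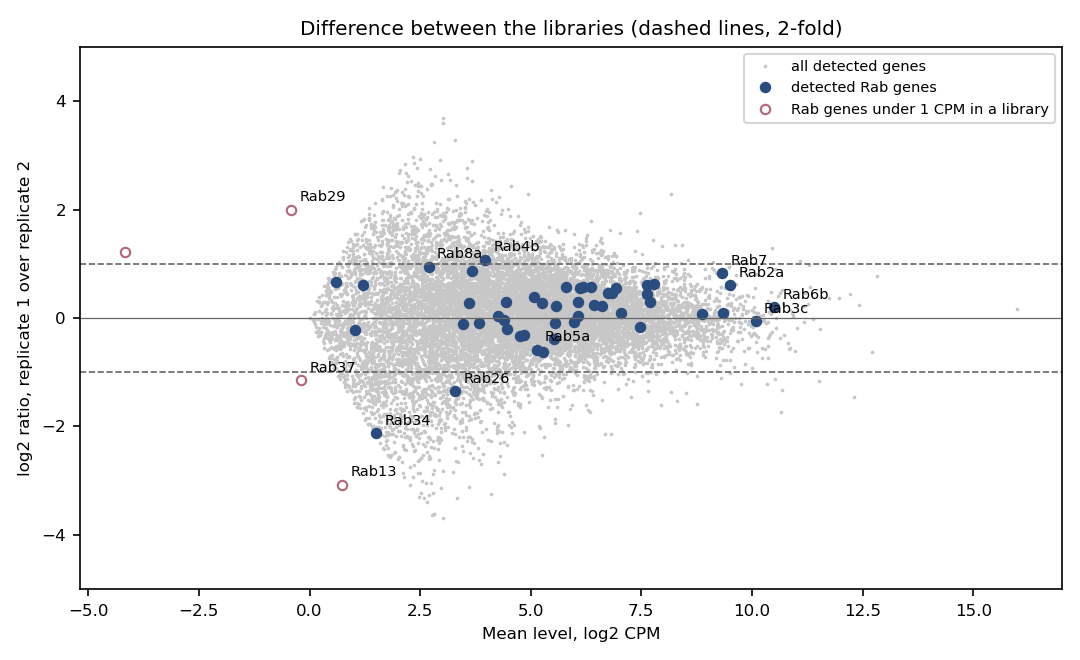
Log2 ratio of TMM-scaled reads, replicate 1 over replicate 2, against mean level in log2 CPM. Grey points are all 12374 detected genes, filled points the 48 detected Rab genes and open points the 4 Rab genes with reads in both libraries that were under 1 CPM in at least a single library. Rab4b lies above the upper 2-fold line, and Rab26 and Rab34 below the lower one.

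The genes that run the Rab cycle were also mostly present. Of 139 distinct genes of regulators and effectors analysed here, 122 were detected (87.8%), against 38.0% of all symbols and 56.6% of protein-coding ones. Of the 122, 6 were past 2-fold higher in replicate 1 and 7 higher in replicate 2 (10.7% in all), against 8.60% and 8.91% of all detected genes (17.5% in all). The 7 genes analysed for GDP dissociation inhibition, Rab escort, Rab prenylation and related handling were all detected, and none of the 7 was past 2-fold. Rabggtb, the catalytic subunit of Rab geranylgeranyl transferase, stood at 39.2 and 29.1 CPM per kilobase in replicates 1 and 2. Gdi2, a widely expressed GDP dissociation inhibitor, stood at 28.8 and 29.8, and Chm, the escort protein that presents new Rab proteins for prenylation, at 15.1 and 16.6 CPM per kilobase. The levels of Gdi2 and Chm were close in the 2 libraries, while Rabggtb was higher in replicate 1, with a log2 ratio of 0.45.

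Of 43 exchange factor genes, which include subunits of the TRAPP complexes and of Rab3GAP, 36 were detected, 3 higher in replicate 1 and 2 higher in replicate 2 (13.9% in all, against 17.5% of all detected genes). The highest were Trappc1 and Trappc3, TRAPP subunits, at 37.18 and 18.001 and at 23.3 and 22.4 CPM per kilobase, and Madd, the exchange factor of Rab3 and Rab27, at 21.4 in both libraries. Trappc1, Mon1a, a subunit of the Rab7 exchange factor, and Rin3, of Rab5, were past 2-fold higher in replicate 1, with log2 ratios of 1.07, 1.56 and 1.05. Dennd4c, of Rab10, and St5 were past it higher in replicate 2, at -1.12 and -1.02. Of 37 genes for GTPase-activating proteins, 35 were detected, 3 higher in replicate 1 and 2 higher in replicate 2 (14.3% in all, against 17.5%). For lists of 36 and 35 detected genes, both shares were near that of all detected genes, so they mark no trait of these lists. The highest activator gene was Tbc1d8 at 18.7 and 15.6 CPM per kilobase, then Tbc1d19 at 13.8 and 19.2 and Tbc1d15, which acts on Rab7, at 14.6 and 15.2. Tbc1d13, Tbc1d12 and Tbc1d20 were past 2-fold higher in replicate 1, with ratios of 1.03, 1.01 and 1.004. Tbc1d1 and Tbc1d4, the activators that control Rab10 and glucose transporter traffic in muscle and fat, were past it higher in replicate 2, at -1.63 and -1.42.

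Of 54 genes for effectors and partners, 46 were detected, 0 higher in replicate 1 and 3 higher in replicate 2 (6.52% in all, against 8.60% and 8.91% of all detected genes in the 2 directions and 17.5% in all). The highest per kilobase was Synj1, the synaptic vesicle lipid phosphatase, at 117 and 144 CPM. Next were Erc2, an active zone scaffold, at 53.3 and 49.8, and Rph3a, the Rab3 effector rabphilin, at 31.3 and 36.9. Whether the products of the listed genes bind a Rab protein was not tested here. The 3 past 2-fold were Optn, an effector of Rab8, with a log2 ratio of -1.18, Acap2, an effector of Rab35, at -1.02, and Appl2, an effector of Rab5, at -1.02. The median level of detected genes was 15.01 CPM per kilobase for the 7 inhibition and prenylation genes, 10.1 for effectors, 5.82 for exchange factors and 5.63 for GTPase-activating proteins, beside 12.2 for the detected Rab genes and 5.31 for all detected genes. Set as lists, the Rab genes, the 7 inhibition and prenylation genes and the effectors thus had medians above that of all detected genes, while exchange factors and activators were near it.

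**Figure D5:**
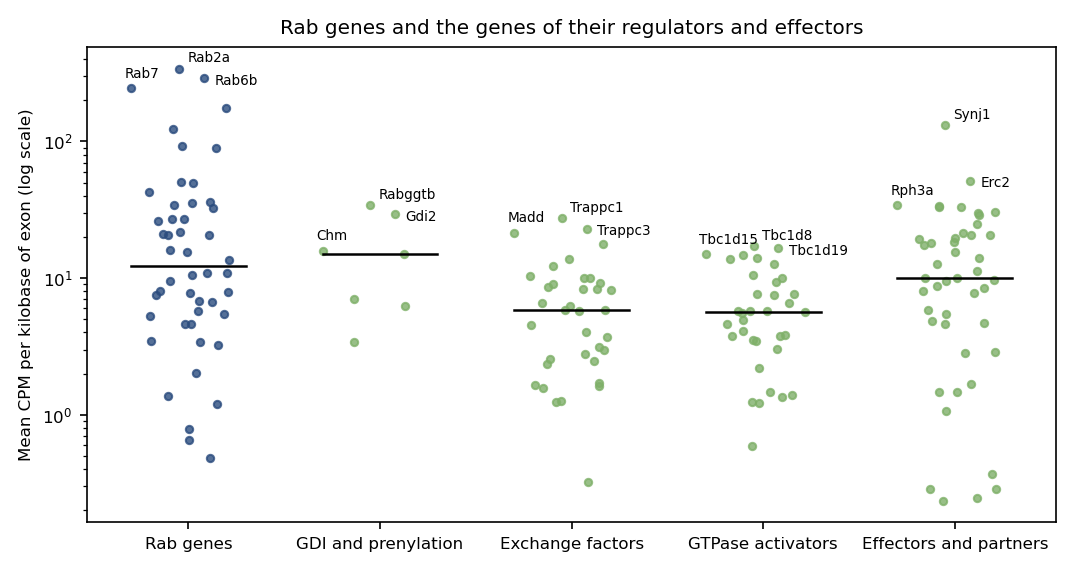
Mean level of detected genes in CPM per kilobase of exon (log axis) for the Rab genes and 4 lists of their regulators and effectors. Each point is a gene, spread sideways only for visibility, lines are medians, and the 3 highest genes drawn in each list are named. Synj1 lies highest in the list of effectors and partners, above 100 CPM per kilobase.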

How the data were processed

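RNA bound to tagged ribosomes was sequenced in 2 libraries of 1 group. The authors deposited unnormalised read counts for each gene symbol. The aligner STAR 2.0.0e, the counter HTSeq and the mouse build mm10 are named per the submitters' processing notes. Annotation, strand setting and filters are not given in the sources, so reads of overlapping or antisense genes cannot be told apart. Each file's 6 lines without a gene were dropped. Of all counted reads, those outside annotated exons were 22.8% in replicate 1, against 31.0% in replicate 2, and ambiguous ones 1.84% and 2.08%.

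CPM used library totals. Exon and coding lengths, positions and overlaps came from GENCODE M21 (GRCm38, the same assembly as mm10), matched by symbol, with Rab1 read as Rab1a. Ratios of replicate 1 over replicate 2 used TMM from edgeR 4.0.16, with a 2-fold threshold. The step was tested on simulated counts that held counting error only, so that test does not cover the spread between the libraries. Read shares and ratios carry exact Clopper-Pearson 95% intervals, and intervals and the floor of 3 reads cover counting error only, since reads are not independent molecules. No p-values were computed, since 1 group of 2 libraries allows no test between conditions. DESeq2 1.42.0 size factors, other filters and other gene lengths were alternatives.

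The genes and lists were chosen with earlier results of these data known. Any Rab gene could be named. Of each regulator list the 3 highest per kilobase and up to 3 past 2-fold in each direction were named, by ratio. A regulator gene is not reported here and was left out of its list's counts. The 9 Rab genes with 10% or more of their exon bases in another annotated gene, and the 10 with 10% or more of their 50-base words in other transcripts, have less certain counts. Rab24, Rab2b, Rab43 and Rab4b were the 4 with over 60% of exon bases shared. Lists of cholinergic, GABAergic and glutamatergic neuron, oligodendrocyte precursor and vessel markers summed to 88.8, 113, 23.9, 84.7 and 47.8 CPM in replicate 1 and 119, 171, 51.4, 178 and 58.6 CPM in replicate 2, with Vip and Emx1 at 0 reads in both libraries.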

Additional observations from a re-analysis of the deposited data

How the results depend on the processing

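The number of detected Rab genes was 49 at 0.5 CPM and 43 at 5 CPM in both libraries, and 49 to 50 with either library alone. The Rab share of reads lay between 0.704% and 0.832% with either library alone, and stood at 0.822% without the ribosomal RNA precursor Rn45s and at 0.771% of the reads of detected genes. The median level of all 58 members was 5.21 in log2(CPM + 1), between 5.12 and 5.30 with either library alone, and 5.70 over detected members only, a larger value by construction.

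Counts of Rab genes past 2-fold, 1 higher in replicate 1 and 2 higher in replicate 2, were equal with library totals, DESeq2 size factors and totals without Rn45s. With no filter on low counts they were 3 and 4 of 52 (29.6% of all such genes passed), at a 1.5-fold ratio 9 and 4 of 48 (38.7%), and at a mean of 5 CPM 1 and 1 of 44 (14.7%). Among members with under 10% exon overlap, an alternative chosen after seeing the data, they were 0 and 1 of 40, Rab34 being that 1. The 6 genes Rab4b, Rab13, Rab26, Rab29, Rab34 and Rab37 kept direction and size past 2-fold under all 3 other scalings. Counts for regulators and effectors, 6 and 7, were 4 and 7 with library totals.

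Gene length mattered most for the order of genes. Of the 7 role groups, 3 kept their leading gene per kilobase of coding sequence and 4 with no length: Rab3c then led in place of Rab3a, Rab6b in place of Rab2a and Rab11b in place of Rab15, and per coding kilobase also Rab23 in place of Rab40b. All 7 kept it with the length of the principal transcript, also chosen after seeing the data, and 6 to 7 with either library alone. Of 14 subfamilies, 11 kept their leading gene per coding kilobase or with no length and 13 with the principal transcript or either library alone. The exceptions were among Rab3, Rab5, Rab22 and, in replicate 1 alone, Rab33. No ratio could be computed with a library left out. No paired analysis was possible because the series has a single group.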
